A study of Homo sapiens with 36 samples.

Results

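Avelumab was compared with atezolizumab in 786-O parental cells, an established human line of clear cell renal cell carcinoma, by sequencing of polyadenylated RNA. Of the 36 libraries of the series, 6 make up this comparison, 3 per antibody, taken by their labels. All 17577 genes with enough counts were tested, of 45478 gene identifiers in the table. The cells were grown in glucose-rich medium with serum and received a single antibody for 24 h. The labels give its concentration as 10 mg/mL. The comparators were 786-O parental cells under durvalumab (3 libraries), and avelumab and atezolizumab libraries (3 each) both of 786-O cells selected for resistance to sunitinib at 4 µM and of parental A498 cells, another human kidney carcinoma line. Whether the 3 libraries of each antibody are separate cultures is not in the labels, and p-values then reflect the variation among these libraries alone, which may be technical. No untreated library is among the 36 of the series, so each difference is that of one antibody against the other. Which of the pair departs from untreated cells could not be tested. In bulk RNA, fewer cells of a kind and less RNA per cell cannot be told apart.

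All 3 antibodies bind PD-L1, the product of CD274, and block its contact with the T cell receptor PD-1. Avelumab carries an active human IgG1 Fc part, whereas the Fc parts of atezolizumab and durvalumab were engineered to bind Fc receptors poorly. SREBP transcription factors, made as membrane-bound precursors and released when sterols run low, switch on the enzymes of cholesterol and fatty acid synthesis. Interferons act through STAT2 and IRF9, among other factors, on genes whose promoters carry an interferon-stimulated response element. Immediate early genes such as EGR1 and FOS are switched on within minutes of ERK kinase signalling and are held back by feedback phosphatases of the DUSP family.

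The libraries held between 32869829 and 58122896 counts, with avelumab replicate 2 the deepest. Log expression correlated between 0.994 and 0.997 across the 9 libraries of the parental state, and no library stood apart. The cells showed renal tubule and carcinoma markers under both antibodies. PAX8 averaged 303 CPM (a library's counts scaled to a total of 1000000) with avelumab and 269 CPM with atezolizumab, EPAS1 171 and 167 CPM, KRT18 386 and 397 CPM, and VIM 6191 and 6186 CPM. CDKN2A had 0 counts in all 9 libraries. Leukocyte markers summed to between 2.91 and 3.89 CPM with avelumab and between 2.97 and 3.72 CPM with atezolizumab, and PTPRC, CD3E and TYROBP were at 0 in all of these 6 libraries. FCGR1A, FCGR2B, FCGR2C, FCGR3A and FCGR3B, which encode Fc gamma receptors, were also at 0 under both antibodies, whereas FCGR2A averaged 0.0953 CPM with avelumab and 0.152 CPM with atezolizumab and FCER1G, the shared signalling chain, 0.221 and 0.2097 CPM. Mitochondrially encoded genes took 1.54% ± 0.116 of counts with avelumab and 1.72% ± 0.211 with atezolizumab (SD, n = 3 each), which did not pass an exact two-sided permutation test (p = 0.3, where 3 against 3 libraries allow 0.1 at the lowest). Cytosolic ribosomal protein genes took 5.02% ± 0.138 and 5.00% ± 0.0722 of counts (exact two-sided permutation p = 0.9).

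Many genes differed between the antibodies, nearly all of them by little. With avelumab, 477 genes were higher (2.71% of those tested) and 286 lower (1.63%) than with atezolizumab, 763 in all (4.34%), at an adjusted p under 0.05 in edgeR's quasi-likelihood test with Benjamini-Hochberg adjustment over all genes tested. DESeq2 called 605. The median change of the called genes was 1.18-fold for those higher and 1.14-fold for those lower. Only 23 genes (0.131%) differed by at least 2-fold, 18 higher and 5 lower, and 2 of these, EGR1 and VAV3, had at least 5 CPM in the higher group. The 3 avelumab libraries lay entirely above or entirely below the 3 atezolizumab libraries for 753 of the 763, against 14.6% of all tested genes above and 9.26% below. Protein-coding genes made up 419 of the genes that were higher and 250 of those lower. No called gene given values here changed sign under any alternative tried. The number of calls depended on single libraries: it was 244 without avelumab replicate 2, 415 without avelumab replicate 3, 412 without atezolizumab replicate 1 and 410 without atezolizumab replicate 3.

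GC content moved with the call. The median GC content of transcripts was 56.4% for genes higher with avelumab, 46.4% for genes lower and 48.2% for all tested. Across genes, a library's deviation from the mean correlated with GC content at 0.326, 0.214 and 0.338 in the avelumab libraries and at -0.317, -0.0140 and 0.0645 in the atezolizumab libraries (durvalumab 0.319, -0.427 and -0.337). After each library's GC trend was removed, 815 genes were called (4.64%), 452 higher (2.57%) and 363 lower (2.07%), of which 589 were also called without that step, or 77.2% of the first set and 72.3% of the second. Named genes whose call was lost by it are marked as such. Those whose call was lost with DESeq2 or with a replicate block are named in the closing section.

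**Figure D1:**
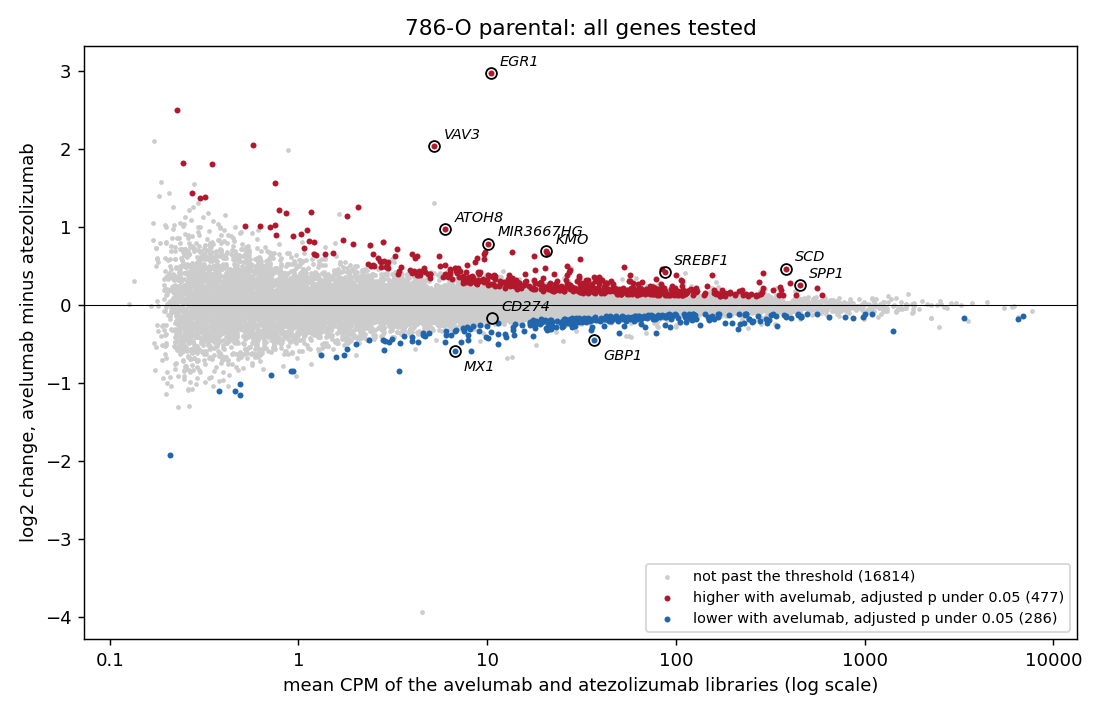
Log2 change of each tested gene, avelumab minus atezolizumab in 786-O parental cells (vertical axis), against its mean CPM on a log axis. Colour marks the 477 genes called higher and the 286 called lower with avelumab, and most of them lie within 2-fold of no change.

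The genes of sterol and fatty acid synthesis that passed the test were all higher with avelumab. Of 25 tested SREBP targets of cholesterol synthesis, 8 rose and none fell, with a median log2 change of 0.14 beside 0.00 over all tested genes. Of 14 tested genes of fatty acid synthesis 5 rose and none fell (median 0.10). Over all tested genes 2.71% rose and 1.63% fell, shares that stand beside each list count below. Of 7 tested targets of the liver X receptor, the oxysterol sensor, 3 rose: SREBF1, SMPDL3A and MYLIP. SREBF1, which encodes SREBP-1, had 98.4, 106 and 95.4 CPM with avelumab, against 71.3, 79.5 and 72.6 CPM with atezolizumab. The groups did not overlap, and the log2 change was 0.41 ± 0.0476 (SE; 1.33-fold, adjusted p = 5.13e-05). SCD, the desaturase that makes monounsaturated fatty acids, had 436, 485 and 415 CPM with avelumab and 309, 328 and 323 CPM with atezolizumab. Its log2 change of 0.47 ± 0.0606 (1.38-fold, adjusted p = 0.00282) was the largest of the fatty acid list. FASN, the fatty acid synthase, had 434, 468 and 435 CPM with avelumab and 359, 363 and 367 CPM with atezolizumab (log2 change 0.28, adjusted p = 8.21e-05), but did not pass after GC correction (adjusted p = 0.0637). LPIN1, a phosphatidate phosphatase, rose by 0.27 on the log2 scale (adjusted p = 0.00120) and FADS2, a desaturase of polyunsaturated fatty acids, by 0.22 (adjusted p = 0.000162). Both groups of libraries stayed apart for each of these 5 genes.

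In the cholesterol branch, DHCR7, the last enzyme of one route to cholesterol, had 119, 119 and 117 CPM with avelumab and 88.1, 98.0 and 98.5 CPM with atezolizumab (log2 change 0.31 ± 0.0408, adjusted p = 6.23e-05). LSS, which closes the sterol ring system, rose by 0.24 (adjusted p = 0.00172). Every avelumab library exceeded every atezolizumab library for both genes. Rises with larger adjusted p-values were found for INSIG1, which retains SREBP in the endoplasmic reticulum (0.29, adjusted p = 0.0313), and FDFT1, the squalene synthase (0.17, adjusted p = 0.00996). MSMO1, a sterol methyl oxidase (0.17, adjusted p = 0.0117), and HSD17B7 (0.21, adjusted p = 0.0464) rose too. So did HMGCS1, the HMG-CoA synthase (0.17, adjusted p = 0.0135), which shares 15% of its exonic length with an antisense gene and is uncertain. SQLE, the squalene epoxidase, did not pass (log2 change 0.11, adjusted p = 0.0948). TM7SF2, a sterol reductase at under 2 CPM, had the largest change of the list without passing (0.41, adjusted p = 0.220). The count of 8 was 4 without atezolizumab replicate 1, 5 without atezolizumab replicate 3 and 5 without avelumab replicate 1, and 13 when libraries were scaled by their raw totals. INSIG1 did not pass without atezolizumab replicate 3, avelumab replicate 2 or any 1 durvalumab library (highest adjusted p = 0.149). Its call was also lost with only the avelumab and atezolizumab libraries. Without atezolizumab replicate 1, FDFT1, MSMO1, HMGCS1 and HSD17B7 did not pass (highest adjusted p over the left-out libraries 0.0818, 0.0805, 0.104 and 0.176, in that order). MSMO1 was also lost without avelumab replicate 1 or 2, and HMGCS1 without atezolizumab replicate 3 or avelumab replicate 1. HSD17B7 was lost without any 1 avelumab or atezolizumab library or durvalumab replicate 2. With DESeq2, no count filter or a replicate block HSD17B7 did not pass either.

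SMPDL3A, a phosphodiesterase induced by the liver X receptor, had 8.88, 8.72 and 10.0 CPM with avelumab and 6.84, 6.17 and 6.04 CPM with atezolizumab. Its libraries did not overlap (log2 change 0.51 ± 0.0873, adjusted p = 0.00102). MYLIP, a ubiquitin ligase of cholesterol uptake, averaged 4.87 ± 0.523 CPM with avelumab and 3.73 ± 0.413 CPM with atezolizumab (SD, n = 3 each; log2 change 0.38, adjusted p = 0.0421), and lost its call without avelumab replicate 1 or 2, atezolizumab replicate 1 or 3, or durvalumab replicate 2 (highest adjusted p = 0.167). NPC1 and NPC2, which export cholesterol from lysosomes, rose by 0.15 (adjusted p = 0.00996) and 0.14 (adjusted p = 0.0461). With IDUA, a lysosomal hydrolase that shares 13.3% of its exonic length with SLC26A1 and is uncertain (0.41, adjusted p = 0.00973), they were the 3 of 54 tested lysosomal genes that passed. Of all tested genes 4.34% passed. NPC1 did not pass without avelumab replicate 2 or atezolizumab replicate 3 (highest adjusted p = 0.0739), NPC2 without any 1 avelumab or atezolizumab library or durvalumab replicate 2 (0.177), and IDUA after GC correction (0.0597). A classical sterol response element, TCACNCCAC on either strand, was found in none of the 6 RefSeq promoters available for the called cholesterol genes and none of the 4 for the called fatty acid genes, with 1.15% of all 27305 promoters of that length holding it. These windows run from 250 bases before to 50 bases after the gene start. Among tested cholesterol genes, 1 of 19 available promoters held the motif (5.26%). With so few promoters and so rare a motif, the lack of a match says little about these genes. Other forms of the element were not searched.

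**Figure D2:**
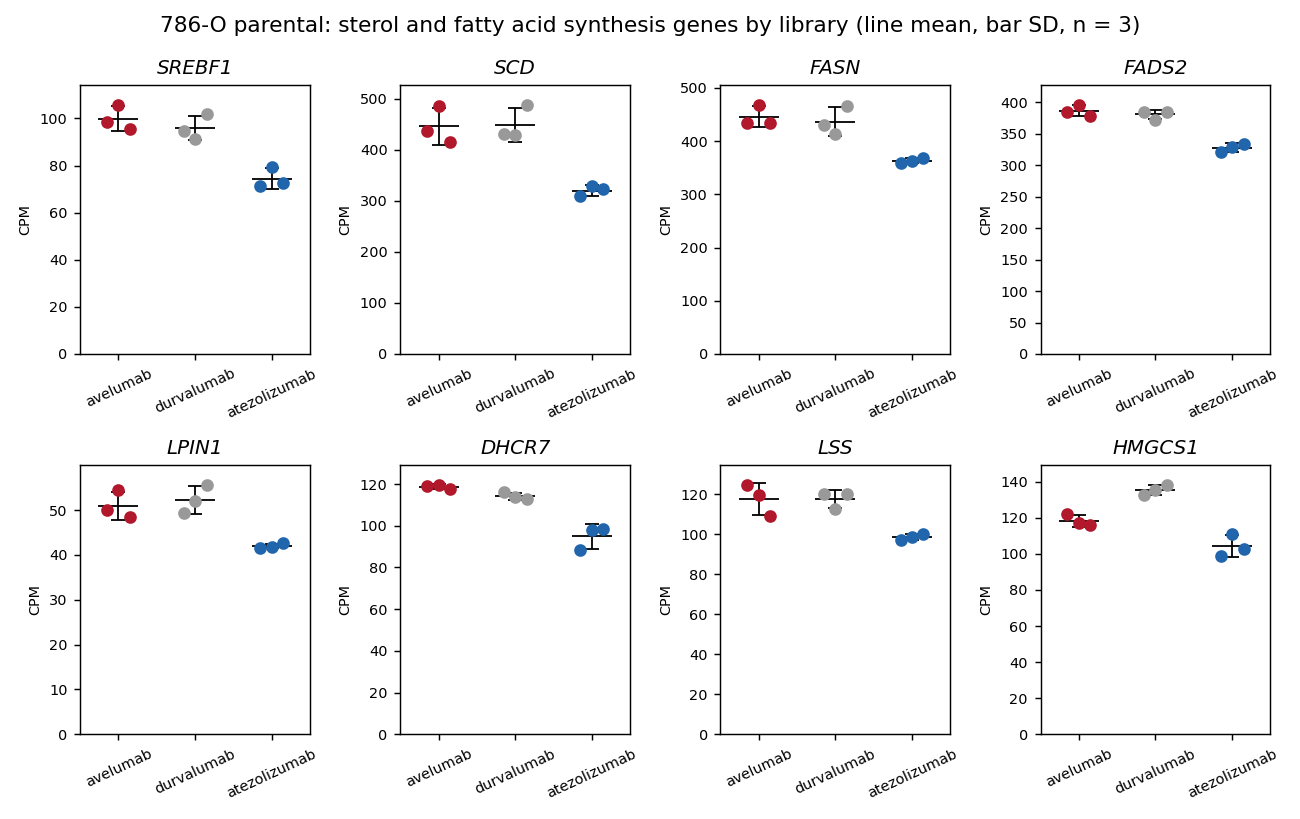
CPM of 8 lipid genes in each of the 9 libraries of 786-O parental cells under avelumab, durvalumab and atezolizumab, left to right (points are libraries, the line is the mean and the bar the SD, n = 3). Avelumab libraries lie above the atezolizumab libraries for all 8, and so do the durvalumab libraries.

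Some interferon-response genes were lower with avelumab. Of 62 tested members, 11 fell, 1 rose and 50 did not pass, against 1.63% lower and 2.71% higher over all genes, and the median log2 change was -0.13. After GC correction 12 fell and 1 rose. Those that fell include OAS1, OAS2 and OAS3, oligoadenylate synthetases that activate RNase L, and GBP1 and GBP3, guanylate-binding proteins. GBP1, an interferon-induced GTPase, had 34.8, 30.3 and 28.99 CPM with avelumab and 43.4, 39.7 and 43.9 CPM with atezolizumab. The groups did not overlap, and the log2 change was -0.45 ± 0.0564 (adjusted p = 7.86e-05). OAS3 had 132, 121 and 116 CPM with avelumab and 153, 139 and 144 CPM with atezolizumab (-0.26 ± 0.0417, adjusted p = 0.000861). OAS2 had 2.86, 2.55 and 2.02 CPM with avelumab and 5.52, 3.27 and 4.30 CPM with atezolizumab (-0.84 ± 0.184, adjusted p = 0.0209). MX1, a GTPase that restricts viruses, had 5.75, 5.42 and 5.10 CPM with avelumab and 9.96, 6.29 and 7.84 CPM with atezolizumab (-0.59 ± 0.129, adjusted p = 0.0183). Atezolizumab replicate 1 held the highest level of OAS2, MX1 and OAS1, and the spread between the atezolizumab libraries exceeded that between the avelumab libraries for each.

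The promoters of GBP1, OAS3 and MX1 are shown because these genes lie among the ones that fell and each holds an interferon-stimulated response element. The windows run from 250 bases before to 50 bases after the gene start (RefSeq, GRCh38.p14), on chr1:89065159-89065458 (minus strand), chr12:112938224-112938523 (plus strand) and chr21:41420308-41420607 (plus strand). Capitals mark matches to the motif GAAA, any 2 bases, GAAA, or in GBP1 to the same motif on the other strand.
GBP1: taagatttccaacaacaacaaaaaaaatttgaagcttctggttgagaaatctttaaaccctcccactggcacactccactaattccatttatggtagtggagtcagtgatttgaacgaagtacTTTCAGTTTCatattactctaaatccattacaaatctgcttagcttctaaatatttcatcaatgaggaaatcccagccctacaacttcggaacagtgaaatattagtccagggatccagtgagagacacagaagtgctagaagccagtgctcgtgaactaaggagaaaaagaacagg
OAS3: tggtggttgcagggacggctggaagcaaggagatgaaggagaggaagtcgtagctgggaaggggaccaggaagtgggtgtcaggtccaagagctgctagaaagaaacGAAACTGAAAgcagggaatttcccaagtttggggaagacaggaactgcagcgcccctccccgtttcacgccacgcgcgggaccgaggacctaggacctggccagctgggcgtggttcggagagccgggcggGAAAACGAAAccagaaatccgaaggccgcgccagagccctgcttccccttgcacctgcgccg
MX1: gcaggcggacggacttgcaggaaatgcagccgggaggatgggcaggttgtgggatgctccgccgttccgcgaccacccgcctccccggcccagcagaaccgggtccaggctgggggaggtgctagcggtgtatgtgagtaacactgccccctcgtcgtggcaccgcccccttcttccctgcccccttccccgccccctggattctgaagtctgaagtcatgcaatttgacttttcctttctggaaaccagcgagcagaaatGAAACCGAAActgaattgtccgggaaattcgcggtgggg
The motif, searched on both strands, was found in 6 of the 10 promoters available for the called members of the list (60.0%) and in 29 of the 48 available for its tested members (60.4%), beside 2.79% of 11448 promoters of tested genes. The share was thus alike for members that passed and for the list as a whole. A match describes letters in these windows and not binding.

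The other members that fell were EPSTI1 (-0.67, adjusted p = 0.0386), OAS1 (-0.60, adjusted p = 0.0491), IFI35 (-0.34, adjusted p = 0.0196), UBE2L6, the enzyme that conjugates ISG15 (-0.27, adjusted p = 0.00502), TRIM22 (-0.26, adjusted p = 0.0198), PLSCR1 (-0.22, adjusted p = 0.00871) and GBP3 (-0.16, adjusted p = 0.0117). TRIM22 overlaps a neighbouring gene over 10.7% of its exons and is uncertain. STAT2, a subunit of the interferon-activated factor ISGF3, was the member that rose (37.0 ± 1.58 CPM with avelumab and 32.6 ± 1.86 CPM with atezolizumab, SD, n = 3 each; 0.17, adjusted p = 0.0421). GBP1 and OAS3 passed under every alternative tried. The list's count of 11 was 3 without avelumab replicate 2, 4 without avelumab replicate 3 and 6 without atezolizumab replicate 1. OAS2 and MX1 did not pass without avelumab replicate 2, avelumab replicate 3 or atezolizumab replicate 3 (highest adjusted p = 0.117), UBE2L6 did not pass without avelumab replicate 2 (adjusted p = 0.0571), and OAS1 passed neither after GC correction (adjusted p = 0.0613) nor without atezolizumab replicate 3 or any 1 avelumab or durvalumab library (highest adjusted p = 0.168). Without atezolizumab replicate 1, EPSTI1, IFI35, TRIM22, PLSCR1 and GBP3 did not pass, and the first 4 of these did not without avelumab replicate 2 either (highest adjusted p over all left-out libraries from 0.0680 for GBP3 to 0.270 for EPSTI1). STAT2 did not pass without avelumab replicate 1 or 2, atezolizumab replicate 2 or 3, or durvalumab replicate 2 (highest adjusted p = 0.189). OAS1 also lost its call with only the avelumab and atezolizumab libraries and with raw library totals.

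Few genes of antigen presentation passed. Of 21 tested genes of MHC class I presentation, 2 fell and none rose, with a median log2 change of -0.05. Over all tested genes 1.63% fell and 2.71% rose. Changes above 0 were found for 3 of the 21. The avelumab libraries lay entirely below the atezolizumab libraries for 8, beside 9.26% of all tested genes. After GC correction 5 fell and none rose. PSMB9, an immunoproteasome subunit, had 21.5, 18.3 and 18.001 CPM with avelumab and 22.8, 23.9 and 23.8 CPM with atezolizumab (-0.30 ± 0.0690, adjusted p = 0.0138), and TAP1, a subunit of the peptide transporter, fell by 0.15 (adjusted p = 0.0395). Both lost their calls without avelumab replicate 2 or 3, or atezolizumab replicate 2 or 3 (highest adjusted p 0.106 for PSMB9 and 0.210 for TAP1). HLA-B and HLA-C, whose reads can be split between near-identical genes, and B2M had log2 changes between -0.02 and 0.02 (adjusted p of 0.836 or more). Among 17 tested ligands of the B7 family and regulators of PD-L1, 1 fell. That gene was PDCD1LG2, which encodes PD-L2, the other ligand of PD-1, with 5.90, 5.69 and 5.10 CPM under avelumab and 6.35, 7.46 and 7.94 CPM under atezolizumab (-0.39 ± 0.0997, adjusted p = 0.0252). PDCD1LG2 did not pass without avelumab replicate 2 or 3, or atezolizumab replicate 2 or 3 (highest adjusted p = 0.144). CD274 itself, the target of the antibodies, had 9.63, 9.88 and 10.5 CPM with avelumab and 10.3, 10.9 and 12.3 CPM with atezolizumab. The groups overlapped, and the change of -0.17 ± 0.0774 did not pass (adjusted p = 0.240).

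**Figure D3:**
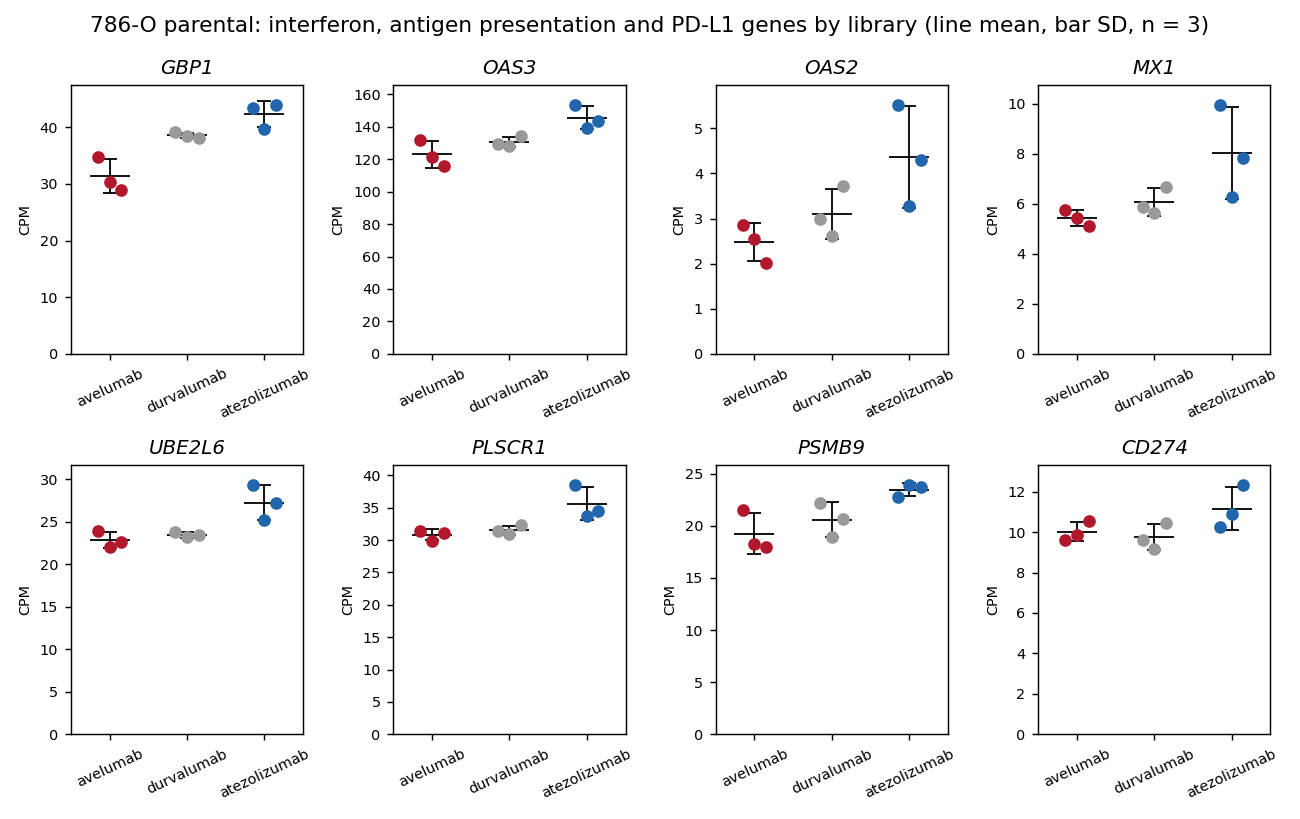
CPM of 7 interferon-related genes and CD274 in each of the 9 libraries of 786-O parental cells under avelumab, durvalumab and atezolizumab, left to right (points are libraries, the line is the mean and the bar the SD, n = 3). Avelumab libraries lie below atezolizumab libraries for the 7 interferon-related genes, and CD274 overlaps between the groups.

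Targets of NF-kappaB, the transcription factor of inflammatory signalling, had a median log2 change of -0.17 over 29 tested members, of which 5 fell and 2 rose. Over all tested genes 1.63% fell and 2.71% rose. TNIP1, an inhibitor of the pathway, had 274, 254 and 256 CPM with avelumab and 294, 291 and 309.8 CPM with atezolizumab (-0.20 ± 0.0382, adjusted p = 0.00314). NFKB2, which encodes the p100 subunit, fell by 0.22 (adjusted p = 0.0117), TRAF1 by 0.50 (adjusted p = 0.0445), BIRC3 by 0.18 (adjusted p = 0.0355) and the cytokine LIF by 0.12 (adjusted p = 0.0401). NFKBIZ, which encodes the nuclear cofactor IkappaB-zeta, moved the other way, with 47.6, 47.9 and 47.6 CPM under avelumab and 42.5, 38.0 and 35.9 CPM under atezolizumab (0.28 ± 0.0506, adjusted p = 0.00205), as did the adhesion molecule VCAM1 (0.15, adjusted p = 0.0386). The cytokines with the largest changes did not pass. CSF2 had 12.8, 8.77 and 10.4 CPM with avelumab and 15.6, 13.9 and 19.7 CPM with atezolizumab (-0.66, adjusted p = 0.138), IL6 a change of -0.52 (adjusted p = 0.140; 20.7% of its exonic length is shared with an antisense gene) and CXCL8 one of -0.46 (adjusted p = 0.334). TNIP1 and NFKBIZ passed under every alternative tried, whereas the count of 5 was 1 without avelumab replicate 2, avelumab replicate 3 or atezolizumab replicate 3, 2 without atezolizumab replicate 1 or durvalumab replicate 2, and 8 without avelumab replicate 1. NFKB2, TRAF1, BIRC3 and LIF did not pass without atezolizumab replicate 3 or avelumab replicate 2 or 3 (highest adjusted p over all left-out libraries from 0.0655 for NFKB2 to 0.217 for LIF), VCAM1 did not without any 1 avelumab library, atezolizumab replicate 1 or 2, or durvalumab replicate 2 (highest adjusted p = 0.161), and BIRC3 did not after GC correction (adjusted p = 0.187). TRAF1 also lost its call with only the avelumab and atezolizumab libraries.

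Immediate early and ERK-responsive genes held the largest called change of the comparison. EGR1, a zinc-finger factor induced by ERK, had 13.1, 25.1 and 17.4 CPM with avelumab and 2.67, 2.04 and 2.42 CPM with atezolizumab. Every avelumab library was above every atezolizumab library, though the avelumab libraries differed widely among themselves, and the log2 change was 2.97 ± 0.499 (7.84-fold, adjusted p = 0.0308). FOS, at about 1 CPM or less, had 0.572, 1.10 and 1.11 CPM with avelumab and 0.221, 0.240 and 0.218 CPM with atezolizumab (2.05 ± 0.480, adjusted p = 0.0331). DUSP6, the phosphatase that turns off ERK, had 7.37, 8.55 and 8.43 CPM with avelumab and 5.35, 6.29 and 5.88 CPM with atezolizumab (0.48 ± 0.0871, adjusted p = 0.00225), and 40.5% of its exonic length is shared with another gene, so it is uncertain. Of 34 tested genes of this kind, 6 rose and 1 fell (median 0.07), beside 2.71% higher and 1.63% lower over all tested genes. The others that rose were KLF2 (0.39, adjusted p = 0.0289), SPRY2, a feedback inhibitor of receptor signalling (0.24, adjusted p = 0.0415), and MYC (0.15, adjusted p = 0.0274). CCND1, which encodes cyclin D1, fell by 0.12 (adjusted p = 0.0348) and is uncertain because 10.3% of its exonic length is shared with LTO1. DUSP6 passed under every alternative tried. EGR1 and FOS did not pass without any 1 atezolizumab library, avelumab replicate 2 or 3, or durvalumab replicate 2 (highest adjusted p 0.112 for EGR1 and 0.154 for FOS), and KLF2 did not after GC correction (adjusted p = 0.0581). KLF2, SPRY2 and MYC did not pass without atezolizumab replicate 1 or 2 or avelumab replicate 2 (highest adjusted p 0.169, 0.286 and 0.1502), and CCND1 did not without avelumab replicate 1 or 3, atezolizumab replicate 2 or 3, or durvalumab replicate 2 (highest adjusted p = 0.206). The count of 6 was 1 without atezolizumab replicate 1, atezolizumab replicate 2 or avelumab replicate 2, and 2 without avelumab replicate 3 or durvalumab replicate 2.

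Among targets of YAP and TEAD, which read cell contact and stiffness, 2 of 25 rose and 1 fell (2.71% and 1.63% over all tested genes). CCN2, a matricellular protein also known as connective tissue growth factor, had 32.5, 42.4 and 37.6 CPM with avelumab and 24.9, 23.8 and 25.8 CPM with atezolizumab (0.59 ± 0.119, adjusted p = 0.0403). CCN1 rose by 0.13 (adjusted p = 0.0355). F3, which encodes tissue factor, had 47.7, 46.6 and 50.1 CPM with avelumab and 59.0, 54.1 and 59.1 CPM with atezolizumab (-0.27 ± 0.0445, adjusted p = 0.000787) and passed under every alternative tried. CCN2 did not pass after GC correction (adjusted p = 0.0584), and neither CCN gene passed without atezolizumab replicate 1 or 2, avelumab replicate 2 or 3, or durvalumab replicate 2 (highest adjusted p = 0.166 for each).

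Targets of BMP and TGF-beta SMADs split. Of 20 tested, 2 rose and 2 fell (median 0.06), beside 2.71% and 1.63% over all tested genes. ATOH8, a helix-loop-helix factor induced by BMP signalling, had 7.88, 8.36 and 7.63 CPM with avelumab and 4.27, 4.53 and 3.35 CPM with atezolizumab (0.97 ± 0.101, 1.96-fold, adjusted p = 4.26e-06). ID2, a dominant-negative partner of such factors and a BMP target, had 63.8, 65.1 and 66.5 CPM with avelumab and 50.4, 52.7 and 45.3 CPM with atezolizumab (0.39 ± 0.0529, adjusted p = 0.000329). Neither gene overlapped between the antibodies, and both passed under every alternative tried. The BMP targets ID1 and ID3 had changes of 0.34 and 0.26 without passing (adjusted p = 0.254 and 0.274). PMEPA1, a TGF-beta target and an inhibitor of SMAD signalling, fell by 0.19 (adjusted p = 0.0337). It did not pass without atezolizumab replicate 2 or 3, any 1 avelumab library or any 1 durvalumab library (highest adjusted p = 0.131). With only the avelumab and atezolizumab libraries PMEPA1 did not pass either.

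KMO and QPRT, enzymes of the kynurenine route from tryptophan to NAD, were higher with avelumab. KMO, the kynurenine 3-monooxygenase, had 22.1, 25.9 and 28.3 CPM with avelumab and 15.9, 15.8 and 15.3 CPM with atezolizumab (0.69 ± 0.0725, 1.61-fold, adjusted p = 2.38e-05). KMO shares 28.4% of its exonic length with OPN3, an opsin gene that showed nearly the same levels and change (0.66 ± 0.0665, adjusted p = 4.82e-06), so it is uncertain which of them the shared counts belong to. QPRT, which feeds quinolinic acid into NAD synthesis, had 96.3, 99.2 and 99.5 CPM with avelumab and 71.4, 75.4 and 66.8 CPM with atezolizumab (0.46 ± 0.0484, adjusted p = 2.55e-05), and 15.7% of its exonic length is shared with another gene. No library of one antibody overlapped the other for these 3 genes. That KMO and QPRT belong to one route was seen only after their values. SLC6A6, the taurine transporter, had 107, 119 and 115 CPM with avelumab and 88.0, 86.8 and 84.8 CPM with atezolizumab (0.38 ± 0.0374, adjusted p = 1.69e-06). ALDH1A1, a retinaldehyde dehydrogenase, had 117, 117 and 125 CPM with avelumab and 99.9, 94.6 and 93.1 CPM with atezolizumab (0.31 ± 0.0367, adjusted p = 2.01e-05).

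**Figure D4:**
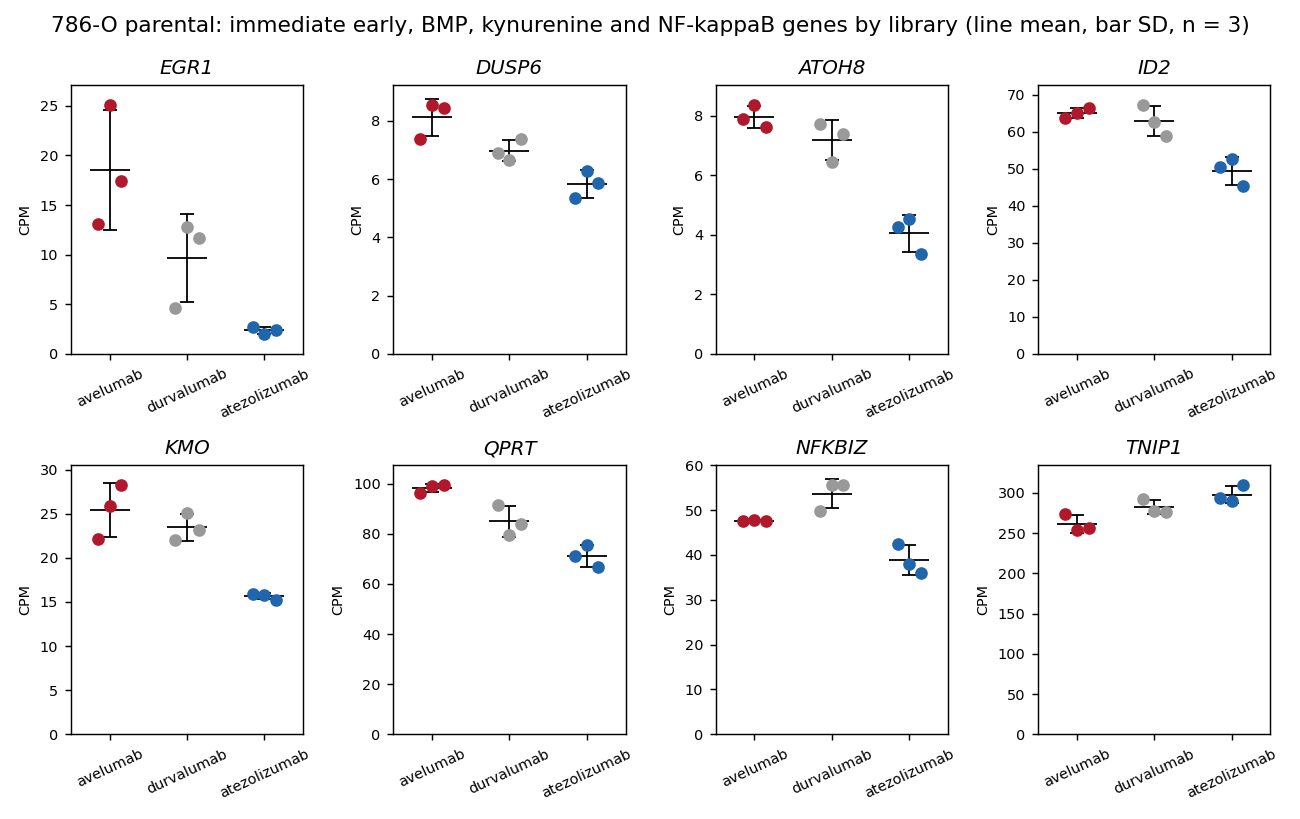
CPM of EGR1, DUSP6, ATOH8, ID2, KMO, QPRT, NFKBIZ and TNIP1 in each of the 9 libraries of 786-O parental cells under avelumab, durvalumab and atezolizumab, left to right (points are libraries, the line is the mean and the bar the SD, n = 3). TNIP1 is lower in the avelumab than in the atezolizumab libraries, the other 7 are higher, and EGR1 spreads widely within avelumab and durvalumab.

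A few markers of renal tubule identity rose, where 2.71% of all tested genes did. Of 21 tested, 3 were higher and none lower (median 0.00): PAX2, a factor of kidney development, had 17.97, 18.3 and 17.7 CPM with avelumab and 12.04, 14.2 and 14.7 CPM with atezolizumab (0.39 ± 0.0670, adjusted p = 0.00115). PAX8, the lineage factor of renal epithelium, had 313, 305 and 293 CPM with avelumab and 266, 273 and 267 CPM with atezolizumab (0.16 ± 0.0321, adjusted p = 0.00371). NR1H4, the bile acid receptor FXR, which is also expressed in kidney tubules, had 0.903, 1.15 and 1.31 CPM with avelumab and 0.417, 0.2997 and 0.408 CPM with atezolizumab (1.56 ± 0.2501, adjusted p = 0.000522), at low counts.

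Some matrix genes and some targets of the hypoxia-inducible factors passed, most of these lower with avelumab. Of 38 tested matrix and mesenchymal genes 4 fell and 1 rose (median -0.02), beside 1.63% lower and 2.71% higher over all tested genes. LAMB3, a laminin subunit, had 201, 201 and 199 CPM with avelumab and 231, 225 and 249.5 CPM with atezolizumab (-0.24 ± 0.0405, adjusted p = 0.00117), and FBN1, COL6A1 and COL4A1 fell by 0.38 (adjusted p = 0.00690), 0.19 (adjusted p = 0.0116) and 0.15 (adjusted p = 0.0188). MMP1, the interstitial collagenase, was the one that rose, with 9.87, 12.3 and 13.98 CPM under avelumab and 6.43, 8.03 and 8.05 CPM under atezolizumab (0.68 ± 0.123, adjusted p = 0.00954). Of 39 hypoxia-inducible factor targets 6 fell and 2 rose (median 0.00), and all 3 hydroxylase and oxidase genes named here act on collagen. LOX, which cross-links it, had 7.52, 6.64 and 6.04 CPM with avelumab and 9.81, 8.60 and 8.71 CPM with atezolizumab (-0.44 ± 0.0851, adjusted p = 0.00313). P4HA2 and P4HA1, prolyl hydroxylase subunits, fell by 0.23 (adjusted p = 0.00241) and 0.14 (adjusted p = 0.0262), and SLC2A1, the glucose transporter, by 0.11 (adjusted p = 0.0462). CCND1, given above, is also on this list. PFKFB4 and PFKFB3, which set the level of a glycolytic activator, rose by 0.47 (adjusted p = 0.0233; 0.0629 after GC correction) and 0.12 (adjusted p = 0.0282). The count of 4 matrix genes was 1 without avelumab replicate 2, where FBN1, COL6A1 and COL4A1, and MMP1 with them, did not pass (highest adjusted p 0.0571, 0.0858, 0.132 and 0.0644), and that of 6 hypoxia targets was 3 without avelumab replicate 3, atezolizumab replicate 1 or atezolizumab replicate 2. P4HA1, SLC2A1, PFKFB4 and PFKFB3 did not pass without either of those atezolizumab libraries, or without avelumab replicate 2 or 3 (highest adjusted p 0.128, 0.191, 0.125 and 0.125).

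Of 28 tested p53 targets, 4 fell and none rose (median -0.08): BTG2 (6.93 ± 0.189 CPM with avelumab and 8.90 ± 0.704 CPM with atezolizumab, SD, n = 3 each; -0.38, adjusted p = 0.00843), GADD45B (-0.25, adjusted p = 0.000721), MDM2 (-0.21, adjusted p = 0.0262) and FAS (-0.17, adjusted p = 0.0170). Only 2 were called without avelumab replicate 2, avelumab replicate 3 or atezolizumab replicate 1. BTG2, MDM2 and FAS reached adjusted p-values of 0.0701, 0.126 and 0.112 at the highest over left-out libraries, and GADD45B passed under every alternative tried. Among 33 targets of NRF2, the sensor of oxidants, 4 rose and none fell (median 0.03): the aldo-keto reductases AKR1C3 (0.39, adjusted p = 0.0186) and AKR1C1 (0.65, adjusted p = 0.0421, at under 2 CPM), which are near-identical genes and so uncertain, HMOX1, the haem oxygenase (0.18, adjusted p = 0.0191), and GSR, the glutathione reductase (0.14, adjusted p = 0.0331). That count was 0 without atezolizumab replicate 1, 1 without any 1 avelumab library, and 2 without atezolizumab replicate 2 or 3 (highest adjusted p 0.114 for AKR1C3, 0.240 for AKR1C1, 0.0944 for HMOX1 and 0.136 for GSR). Of 49 tested genes of the ATF4 amino acid response 3 rose and none fell (median 0.08), namely PSPH, the last enzyme of serine synthesis (0.31, adjusted p = 0.000269), JDP2 (0.29, adjusted p = 0.0482) and MARS1 (0.15, adjusted p = 0.0174; 13.3% of its exonic length is shared with ARHGAP9). JDP2 and MARS1 did not pass without atezolizumab replicate 1 or 2 or avelumab replicate 2 (highest adjusted p 0.251 and 0.1501). JDP2 also lost its call with only the avelumab and atezolizumab libraries, with DESeq2, a stricter count filter or a replicate block, and without robust estimation. Beside each count of this paragraph, 2.71% of all tested genes rose and 1.63% fell.

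The other groups named here held at most 2 calls each. Over all tested genes 4.34% were called, a share that 1 or 2 calls in a small group can exceed. No gene was called among 19 tested for the unfolded protein response, 39 for mitosis, 7 metallothionein and zinc genes or 13 mitochondrially encoded genes, the last with a median log2 change of -0.15. Of 42 DNA replication genes 1 was called (MCM6, -0.13, adjusted p = 0.0161), as were 1 of 75 cytosolic ribosomal protein genes (RPL12, -0.12, adjusted p = 0.0389), 1 of 68 nuclear respiratory chain genes (NDUFS8, 0.13, adjusted p = 0.0449) and 1 of 15 heat shock genes (HSPA1B, 0.22, adjusted p = 0.00960), a member of a near-identical gene pair. Of 25 glycolytic genes 2 fell, SLC2A1 and PFKP (-0.15, adjusted p = 0.00586). Of 26 genes listed with the tricarboxylic acid cycle IDH1 and OGDH rose, each by 0.12 (adjusted p = 0.0421 and 0.0403). The IDH1 enzyme is cytosolic and lies outside the cycle itself. The 2 of 25 autophagy genes that rose were ULK1, the initiating kinase (0.31, adjusted p = 0.0169), and ATG2A, a lipid transfer protein (0.25, adjusted p = 0.00269). ULK1 did not pass after GC correction, HSPA1B did not without atezolizumab replicate 3 (adjusted p = 0.0637), and MCM6, RPL12, NDUFS8, IDH1, OGDH and ULK1 did not without atezolizumab replicate 1 (highest adjusted p over all left-out libraries from 0.0982 for MCM6 to 0.177 for OGDH). These genes, named because each list held few calls, were chosen after their values were seen.

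Further genes came in by size or by p alone. VAV3, an exchange factor for small GTPases, had 6.26, 7.43 and 11.7 CPM with avelumab and 2.40, 2.13 and 1.55 CPM with atezolizumab (2.03 ± 0.293, 4.09-fold, adjusted p = 0.0142). It did not pass without any 1 atezolizumab library (highest adjusted p = 0.0636), nor in a fit of only the avelumab and atezolizumab libraries. The gene of lowest p was MIR3667HG, a microRNA host gene, with 12.7, 13.1 and 12.8 CPM under avelumab and 7.36, 7.79 and 7.13 CPM under atezolizumab (0.78 ± 0.0685, adjusted p = 3.79e-07). CEP152, a centriole assembly protein, had 31.3, 32.6 and 31.1 CPM with avelumab and 23.1, 23.2 and 23.2 CPM with atezolizumab (0.44 ± 0.0486, adjusted p = 7.34e-06). Neither overlapped between antibodies. The long noncoding RNAs LINC02593 and OLMALINC rose by 0.65 (adjusted p = 3.73e-05) and 0.60 (adjusted p = 2.55e-05). The pseudogene transcripts KRT223P (1.25, adjusted p = 1.88e-05) and HERC2P2 (0.68, adjusted p = 0.00996) were also higher, as were KRTAP2-3, a keratin-associated protein (0.63, adjusted p = 0.00110), HOGA1, an enzyme of hydroxyproline breakdown (0.62, adjusted p = 0.000382), CYP1B1-AS1 (0.62, adjusted p = 0.0344), DIRAS2, a small GTPase (0.61, adjusted p = 0.00150) and PTOV1 (0.33, adjusted p = 2.01e-05). Reads of the pseudogenes can be split with near copies, and HOGA1, CYP1B1-AS1 and PTOV1 share 16.3%, 14.1% and 22% of exonic length with neighbours, so all 5 are uncertain. SPP1, which encodes osteopontin, had 482, 497 and 510.3 CPM with avelumab and 414, 408 and 417 CPM with atezolizumab (0.25 ± 0.0334, adjusted p = 6.23e-05). Among the genes that fell most were ASS1, the argininosuccinate synthase of arginine synthesis (8.66 ± 0.639 CPM with avelumab and 11.5 ± 1.07 CPM with atezolizumab, SD, n = 3 each; -0.42, adjusted p = 0.00158), SDSL, a serine dehydratase-like enzyme (-0.40, adjusted p = 0.000506), ARHGDIB, an inhibitor of small GTPases (-0.38, adjusted p = 0.00115), and AKAP12, a kinase scaffold (-0.36, adjusted p = 0.000331). NAV2-AS6 (-0.47, adjusted p = 0.00156), ZNF232-AS1 (-0.40, adjusted p = 0.0204) and ACKR3, a scavenging chemokine receptor (-0.39, adjusted p = 0.0278), fell as well. The antisense RNA NKILA, a reported inhibitor of NF-kappaB signalling, fell by 0.47 (adjusted p = 0.00532) and shares 13.2% of its exonic length with PMEPA1, which also fell. NKILA, HERC2P2, CYP1B1-AS1, ZNF232-AS1 and ACKR3 did not pass without avelumab replicate 2, nor did CYP1B1-AS1, ZNF232-AS1 and ACKR3 without some others (atezolizumab replicates 1 and 3 and durvalumab replicate 2; atezolizumab replicates 1 and 2 and avelumab replicate 3; atezolizumab replicate 3, in that order). The highest adjusted p-values over all left-out libraries were 0.0680 for NKILA, 0.0665 for HERC2P2, 0.121 for CYP1B1-AS1, 0.128 for ZNF232-AS1 and 0.175 for ACKR3.

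Durvalumab in the same cells gives another set of levels. Avelumab against durvalumab gave 0 called genes (0%), with 1899 at an unadjusted p under 0.05 and 28 called by DESeq2, whereas durvalumab against atezolizumab gave 320 (1.82%), 226 higher (1.29%) and 94 lower (0.535%). The first count was 222 without durvalumab replicate 1, 72 without avelumab replicate 1 and 18 without atezolizumab replicate 1. The second was 536 without durvalumab replicate 1 and 104 to 193 without durvalumab replicate 2 or 3 or atezolizumab replicate 2 or 3. These contrasts share libraries with the main one, so their agreement is no separate evidence, and an absence of calls does not show that avelumab and durvalumab act alike. SREBF1 had 94.5, 91.5 and 102 CPM with durvalumab (durvalumab minus atezolizumab 0.35, adjusted p = 0.000508) and SCD 431, 429 and 488 CPM (0.47, adjusted p = 0.00395). HMGCS1, with 133, 135 and 138 CPM, lay higher with durvalumab than in any avelumab or atezolizumab library (durvalumab minus atezolizumab 0.36, adjusted p = 1.65e-05; uncertain as above). GBP1 had 39.1, 38.5 and 38.2 CPM with durvalumab, all above the 28.99 to 34.8 CPM of avelumab and below the 39.7 to 43.9 CPM of atezolizumab (durvalumab minus atezolizumab -0.15, adjusted p = 0.182). EGR1 had 4.59, 12.8 and 11.7 CPM with durvalumab, all of them between the avelumab and the atezolizumab libraries, and QPRT 91.5, 79.6 and 83.9 CPM, also between them. ATOH8 had 7.71, 6.44 and 7.39 CPM (0.81, adjusted p = 6.01e-05). Counted by list, durvalumab against atezolizumab called 13 of 25 cholesterol genes, all higher, and 6 lower and 1 higher of 62 interferon-response genes.

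The same pair of antibodies was compared in 786-O cells resistant to sunitinib, where 228 of 18886 tested genes were called (1.21%; 0.842% higher and 0.365% lower), and in A498 parental cells, where 623 of 18372 were called (3.39%; 1.71% higher and 1.68% lower). Of the 763 genes called in 786-O parental cells, 403 of the 753 tested in resistant cells had the same sign there (53.5%, against 47.0% of genes not called), and 468 of the 742 tested in A498 did (63.1%, against 54.2%). Called in the same direction in both were 52 genes with resistant cells, 6.82% of the 763 and 22.8% of the resistant calls, and 71 with A498, 9.31% and 11.4%. The differences themselves were tested in fits of 18 libraries. The parental difference departed from that of resistant 786-O cells for 232 of 19369 genes (1.20%), 144 more positive (0.743%) and 88 more negative (0.454%), and from that of A498 for 269 of 19703 (1.37%), 180 more positive (0.914%) and 89 more negative (0.452%). The first of these counts was 57 without atezolizumab replicate 1 of the parental cells and 705 without avelumab replicate 1 of the resistant cells, and the second was 113 without avelumab replicate 2 of A498. As every state has a separate batch label, state and batch cannot be told apart.

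Few lipid genes differed between states by the interaction test. Against resistant cells 1 of 25 cholesterol genes and 0 of 14 fatty acid genes passed, and against A498 0 and 1 did. SCD changed by 0.47 in 786-O parental cells, 0.33 in resistant cells (adjusted p = 0.000345) and -0.11 in A498 (adjusted p = 0.691). Its difference from A498 was 0.57 (adjusted p = 0.0567). For SREBF1 the changes were 0.41, 0.29 (adjusted p = 0.0589) and -0.12 (adjusted p = 0.603), and the difference from A498 passed (0.53, adjusted p = 0.0410). SMPDL3A changed by 0.51 and 0.52 in both 786-O states and by -0.27 in A498, from which it differed by 0.78 (adjusted p = 0.00144). DHCR7 departed from resistant cells, where it changed by 0.02 (difference 0.28, adjusted p = 0.0218), but not from A498, where it rose by 0.16 (difference 0.14, adjusted p = 0.272). In resistant cells 3 cholesterol genes rose, and in A498 2 did.

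Interferon-response genes did not follow the same line. In resistant cells 0 of 62 were called, with a median log2 change of 0.01, and in A498 19 fell and none rose, with a median of -0.20. GBP1 changed by -0.45 in 786-O parental cells, -0.13 in resistant cells (adjusted p = 0.299) and -0.30 in A498 (adjusted p = 7.74e-05), and neither difference between states passed (-0.34, adjusted p = 0.0512, and -0.16, adjusted p = 0.356). The parental change was more negative than that of resistant cells for EPSTI1 (difference -0.77, adjusted p = 0.0251), TRIM22 (-0.39, adjusted p = 0.0215) and DDX60 (-0.39, adjusted p = 0.0351), the 3 of the list that passed. NF-kappaB targets fell in resistant cells too, 13 of 29 (median -0.21). Among them were IL6 (-0.52, adjusted p = 0.000283) and CXCL8 (-0.44, adjusted p = 0.0296), whose changes of -0.52 and -0.46 in parental cells did not pass. In A498 3 of 27 tested fell and 2 rose (median -0.03). By the interaction test CSF2 (difference -1.03, adjusted p = 0.0491) and LIF (-0.20, adjusted p = 0.0359) departed from A498. CSF1 (0.28, adjusted p = 0.0299) and CXCL1 (0.75, adjusted p = 0.0480) departed from resistant cells.

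Some signalling genes changed in the parental 786-O state beyond the other states. ATOH8 changed by 0.00 in resistant cells and 0.13 in A498, and its change of 0.97 departed from both (differences 0.96, adjusted p = 0.000188, and 0.84, adjusted p = 0.00204). QPRT changed by 0.00 and 0.04 in those states and also departed from both (0.44, adjusted p = 0.00113, and 0.41, adjusted p = 0.00144), as did DUSP6 (0.73, adjusted p = 0.0216, and 0.62, adjusted p = 0.0329) and ID2 (0.32, adjusted p = 0.0215, and 0.36, adjusted p = 0.0426). EGR1 rose in resistant cells (1.58, adjusted p = 8.82e-07) and had a change of 1.43 in A498 (adjusted p = 0.382), and neither difference from parental 786-O passed (adjusted p = 0.280 and 0.598). KMO and SLC6A6 were higher with avelumab in both 786-O states (resistant 0.54, adjusted p = 0.000604, and 0.31, adjusted p = 0.0124), and both departed from A498 (differences 0.77, adjusted p = 1.09e-05, and 0.54, adjusted p = 1.83e-08), where SLC6A6 fell by 0.16 (adjusted p = 0.0106). F3 and LAMB3 fell in both 786-O states, had changes of 0.18 and 0.04 in A498 without passing, and departed from it (differences -0.45, adjusted p = 0.00174, and -0.29, adjusted p = 0.00927). CCN2, by contrast, rose in A498 (0.50, adjusted p = 0.000239) and differed from resistant cells (0.74, adjusted p = 0.00267).

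**Figure D5:**
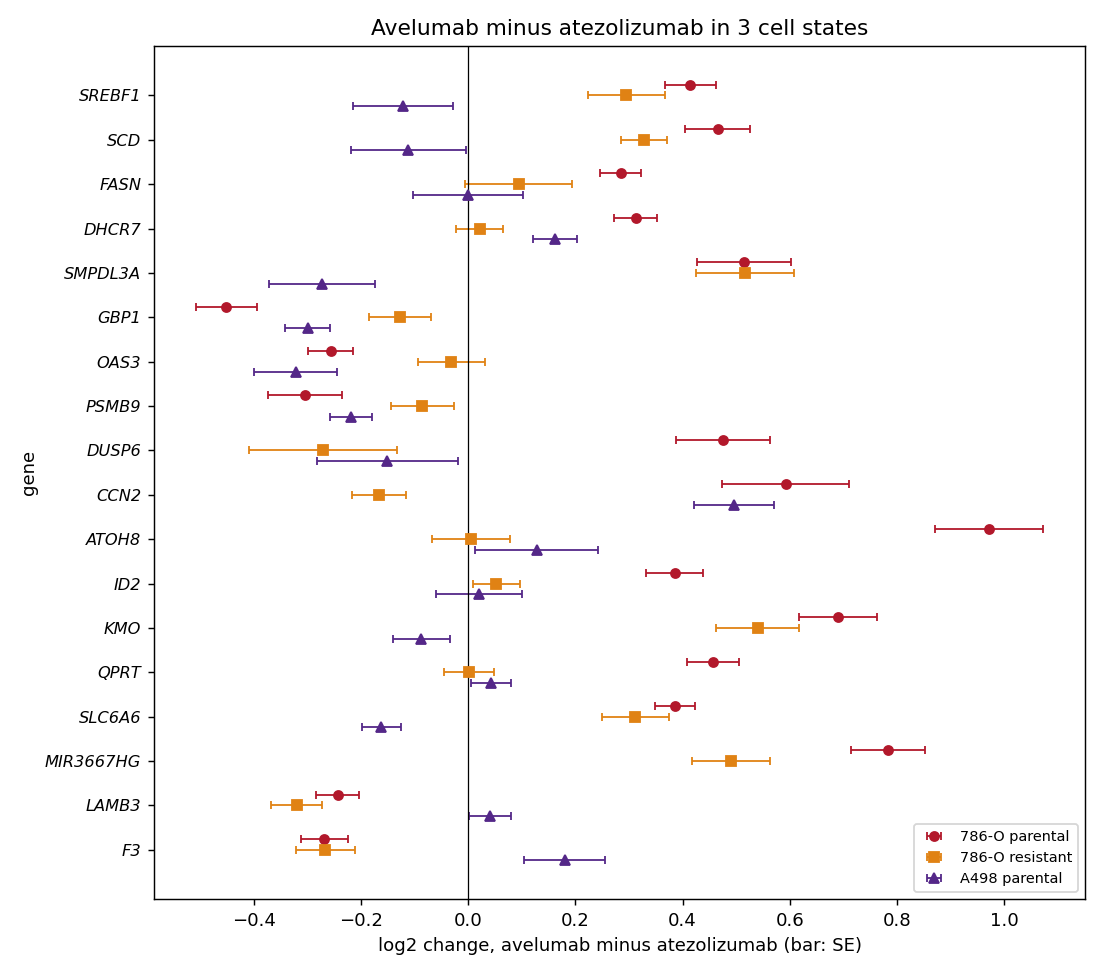
Log2 change, avelumab minus atezolizumab, with its standard error, for 18 named genes in 786-O parental, 786-O resistant and A498 parental cells (horizontal axis, log2; each estimate from 3 against 3 libraries). ATOH8, ID2, QPRT and DUSP6 lie away from 0 in the parental 786-O cells and near or below 0 in the other 2 states, and KMO, SLC6A6 and SREBF1 lie above 0 in both 786-O states; MIR3667HG was not tested in A498.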

How the data were processed

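RNA sequencing of 36 libraries was analysed from 1 table of raw counts per gene that the authors deposited, of which 27 libraries were used here. Per the submitters' processing notes, the tools named are featureCounts 1.6.3, HISAT2 2.1.0, Trimmomatic 0.36.6 and bcl2fastq 2.19.0, and the build is GRCh38 (hg38). Per the labels' protocols, libraries came from a stranded mRNA kit; the strand setting of the counting is not given in the sources used here, so genes that share at least 10% of exonic length with another gene (GENCODE 29) are marked uncertain.

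Tests on the counts used edgeR 4.0.16 under R 4.3.3 (filterByExpr with count minimum 10 and total minimum 15, TMM, robust quasi-likelihood, Benjamini-Hochberg adjustment, threshold 0.05) on the 9 libraries of 786-O parental cells, and interactions on 18 libraries. CPM are counts scaled to a raw library total of 1000000. Values of each group are mean ± SD over 3 libraries, log2 changes ± SE. DESeq2 1.42.0, other scalings and filters, a replicate block, libraries left out and, chosen after seeing the data, a GC correction were alternatives. Same-numbered libraries deviated with correlations of -0.02, -0.03 and 0.01, so the numbers were not taken as pairs. No library was a copy of another.

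On simulated data for the main comparison (17368 genes, 200 changed), log2 changes of 0.25, 0.5 and 1 were recovered in 48.5%, 84.8% and 100% of cases, with 17 of 172 calls false; for the 786-O interaction (18968 genes) the shares were 27.9%, 71.2% and 93.9%. Named genes are the 14 highest and 14 lowest called genes with at least 5 CPM and no overlap, the 8 of lowest p, up to 4 members of each of 42 lists with the largest change at 1 CPM or more, CD274 and, per interaction, 4 genes on each side; fewer are printed where many were found, and some genes are not reported here. Other called list members, and members that did not pass beside them, were named after their values were seen. The comparison and the lists (1077 distinct genes) were chosen with earlier results of these data known. Reads carry no molecular identifiers, and depth bounds counting error only.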

Additional observations from a re-analysis of the deposited data

Results flagged for a closer look

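The avelumab minus atezolizumab difference was tested for dependence on the cell state, and the results below differed between states by that test (edgeR's quasi-likelihood interaction, adjusted p under 0.05). Each state has its own batch label, so state and batch cannot be told apart.

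Between 786-O parental and 786-O resistant cells, 232 genes differed. Among those of lowest p on each side, the parental difference exceeded the resistant one by 0.96 (log2) for ATOH8, 0.44 for QPRT, 0.37 for RECQL4, a DNA helicase, and 0.38 for UAP1L1. RECQL4 no longer passed after GC correction (adjusted p = 0.0590). It was below the resistant one by -0.75 for TXNIP, the thioredoxin-interacting protein, -0.73 for MAP7D2 and -0.48 for AKAP12. TXNIP and MAP7D2 were not called in parental cells (log2 changes -0.17 and 0.08) and rose in resistant cells (0.57 and 0.80).

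Between 786-O parental and A498 parental cells, 269 genes differed. The 786-O difference exceeded that of A498 by 0.54 for SLC6A6, 0.70 for OPN3, 0.77 for KMO and 0.37 for SPP1. It was below that of A498 by -0.73 for STEAP1B-AS1, -0.49 for SH3RF2, -0.38 for TGM2, a transglutaminase, and -0.45 for F3. TGM2 fell in 786-O parental cells (-0.16, adjusted p = 0.0294) and rose in A498 (0.22, adjusted p = 0.00137). Its call in 786-O parental cells was lost with raw library totals, with a replicate block, and without atezolizumab replicate 1 or 3, avelumab replicate 1 or 3, or durvalumab replicate 2 (highest adjusted p = 0.131). OPN3 overlaps KMO, and STEAP1B-AS1 shares 37.6% of its exonic length with STEAP1B, so these are uncertain.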

How the results depend on the processing

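Over the alternatives, every called gene given values in the text kept its sign, and 48 of 117 kept their call throughout. The calls lost with GC correction numbered 8, with DESeq2 10 and with a replicate block 28. With DESeq2 these were HSD17B7, MYLIP, STAT2, VCAM1, KLF2, SPRY2, JDP2, IDH1, NDUFS8 and NPC2. All of them but KLF2 were also lost with the block. The block further lost EPSTI1, TAP1, PDCD1LG2, BIRC3, LIF, CCND1, CCN1, P4HA1 and PFKFB3. It also lost SLC2A1, MDM2, AKR1C1, GSR, MARS1, ACKR3, TGM2, OGDH, MCM6 and RPL12. Every call lost without robust estimation was also lost with the block. The main count of 763 was 438 with the block, 605 with DESeq2, 774 with RLE scaling, 1132 with no count filter, 755 with a stricter one, 647 without robust estimation, 940 with only the libraries of this pair and 244 (without avelumab replicate 2) to 1018 (without durvalumab replicate 3) with 1 library left out. Scaling by raw totals gave 791, 73.5% of them higher beside 62.5%. Avelumab against durvalumab gave 28 with DESeq2 and 0 to 222 with a library left out. Durvalumab against atezolizumab (320) gave 148 with the block and 104 to 536. The interaction with resistance (232) gave 536 with DESeq2, 701 with only avelumab and atezolizumab libraries, 134 with GC correction and 57 to 705. That with A498 (269) gave 136 with the block and 113 to 384. The interferon count of 11 was 20 with no filter and 3 to 16, the cholesterol count of 8 was 13 with raw totals and 4 to 10, and the fatty acid count of 5 was 5 to 6. The NF-kappaB count of 5 was 9 with DESeq2, 10 with no filter and 8 without robust estimation. The difference in ribosomal protein share (0.0118 percentage points) ran from -0.0677 to 0.0538 and that in the mitochondrial share (-0.177) from -0.295 to -0.0924. The block left both shares past no threshold (exact p = 0.75 and 0.5, in that order). Genes near 0 changed sign: HLA-B ran from -0.023 to 0.083 (-0.0073 with GC correction), HLA-C from -0.0070 to 0.059 (-0.031 with GC correction) and B2M from -0.036 to 0.0097 (0.0084 with GC correction). Of the called genes with no value in the text, 1 (JSRP1, named after its values were seen) changed sign with GC correction. The replicate numbers were not taken to pair libraries, and the labels do not say whether they mark a shared culture or day. Whether the calls lost with the block are weaker effects was not tested, nor was the cause of the other changes. Changes near 0.25 on the log2 scale were recovered in 48.5% of simulated cases at the depth and number of libraries of this comparison. Those cases left out genes of low counts.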
